A study of Mus musculus with 10 samples.

Results

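The 38 genes described here encode the machinery that copies DNA and the enzymes that supply its building blocks. They were chosen by name, from origin loading to histone deposition behind the fork, with earlier results of these data known. All 38 were found in each of the 3 tables analysed, which together hold 17575 genes. RNA was sequenced from heart tissue of male mice at 1 week of age. Ft1ko hearts (n = 3) came from mice in which a floxed Ft1 allele was removed in the whole body by CMV-cre. Ft1sm22ko hearts (n = 4) came from mice in which the same allele was removed by a Cre under the promoter of the smooth muscle gene sm22 (Tagln). This removal is aimed at cells that use the sm22 promoter, and which cells of these hearts lost Ft1 cannot be read from bulk RNA. WT hearts (n = 3) were the controls of both mutants. Ft1 is a telomere and DNA damage factor whose mouse gene is Aktip, and its action has been linked with DNA replication, which is why these genes are of interest in a heart at the close of its window of cell proliferation.

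In a dividing cell the origin recognition complex, Cdc6 and Cdt1 load the ring of Mcm2 to Mcm7 onto DNA before S phase. Cdc45, the GINS complex and Mcm10 then turn this ring into a moving helicase. DNA polymerase alpha with its primase starts new strands, polymerase epsilon and polymerase delta extend them on the sliding clamp Pcna, and Fen1 and Lig1 join the pieces of the lagging strand. Ribonucleotide reductase, thymidylate synthase and thymidine kinase supply deoxynucleotides, and the histone chaperone made of Chaf1a and Chaf1b packs the new DNA. Most of these genes are transcribed under E2F control as cells enter S phase, and they are quiet in cells that have left the cycle, as cardiomyocytes do soon after birth.

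The deposited tables hold 1 value per gene and pair of groups, so the value in each heart, the spread between hearts and the depth of each library are not known here. For each gene there is a mean normalized count of the hearts compared, a log2 fold change, the standard error (SE) of that change and the p of a Wald test from DESeq2. Group means were worked out here from these and have no error of their own. Each table was normalized separately, so that levels are set side by side only within a table. A gene was called when its p, adjusted by the Benjamini-Hochberg method over all genes of the table with a p, was under 0.05. The labels were checked on Aktip, whose log2 fold change was -1.93 for Ft1ko over WT (SE 0.27, adjusted p = 5.08e-11) and -1.21 for Ft1sm22ko over WT (SE 0.27, adjusted p = 1.07e-04).

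Markers of several cell types differed between the groups. The counts below are to be read beside the shares of all genes called. These were 19.7% higher and 16.1% lower in Ft1ko, and 16.2% higher and 16% lower in Ft1sm22ko, and the shorter lists lay near them in part. All 8 cardiomyocyte markers were at high levels in every group, as in heart tissue. In Ft1ko their summed mean was 258868 normalized counts against 1353250 in WT, with 8 of 8 called lower. Of the 10 thymocyte markers none had a p in that table, since DESeq2 leaves the p blank where the count of a single library is extreme. Their means ranged over 33.1 to 1275 in Ft1ko, against 0.316 to 18.6 in WT, and summed to 4800 against 61.0. The 8 lung epithelium markers, all called higher, summed to 48767 in Ft1ko against 434.6 in WT. In Ft1sm22ko these lists stood closer to WT. The thymocyte sum was 138.8 against 82.6 in WT, with 9 of the 10 genes in the table and 1 of them, Dntt, called. The lung sum was 3876 against 596.8, with no p for 7 of 8 genes, and the cardiomyocyte sum was 711434 against 1822238, with 6 of 8 genes called lower. Erythroid markers were higher in both mutants, with 3 of the 5 genes in each table called and sums of 3633 against 880.6 in Ft1ko and 6110 against 1186 in Ft1sm22ko. Of 6 fibroblast markers 4 were called higher in Ft1ko, with a sum of 53567 against 18181 in WT. Their log2 fold changes there ran from -0.30 to 2.17. In Ft1sm22ko all 6 were called higher, with a sum of 72308 against 24505 in WT. Of 6 macrophage markers 2 were called higher in each mutant, with sums of 4008 against 1376 in Ft1ko and 2377 against 1848 in Ft1sm22ko. The largest single mean made up 2813 of the Ft1ko sum. Of 5 smooth muscle markers 3 were higher and 1 lower in Ft1ko, and 2 higher and 1 lower in Ft1sm22ko. Of 6 endothelial markers 1 was lower in Ft1ko, and in Ft1sm22ko 1 was higher and 2 lower. Of 5 B cell markers 0 were called in Ft1ko and 2 were lower in Ft1sm22ko. Thymocytes and erythroid precursors are cell types that divide rapidly. The part that these cells took in the values of the replication genes was not tested. In bulk tissue, more cells that express a gene and more RNA of it per cell cannot be told apart.

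Replication genes were more abundant in Ft1ko hearts than in WT hearts. Of the 38 genes, 27 were called higher (71.1%) and 0 lower, while of all genes tested 19.7% were called higher and 16.1% lower. Their median log2 fold change was 1.83, with 35 of 38 values above 0 and a range of -0.13 to 3.15, while the median of all genes tested was 0.13. Under the stricter Bonferroni adjustment over all genes, 12 of the 38 passed, all of them higher, against 4.94% of all genes. In Ft1sm22ko hearts 20 of the 38 genes were called higher (52.6%) and 0 lower, against 16.2% and 16% of all genes. Here the median log2 fold change was 1.23, with 33 values above 0 and a range of -0.61 to 2.64, beside 0.06 for all genes. The Bonferroni adjustment left Mcm5, Gins2 and Rfc5, against 3.87% of all genes. The same 3 WT hearts served in each of these comparisons, which are therefore not independent of each other. Both counts of 27 and 20 were 0 when the Wald statistic was set against a t distribution on 4 or 5 degrees of freedom, as was the count over all genes. The counts by role below rest on few genes each and are to be read beside the 19.7% and 16.2% of all genes called higher. Whether a gene differs between the mutants is a separate test, given after the account of each role.

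**Figure D1:**
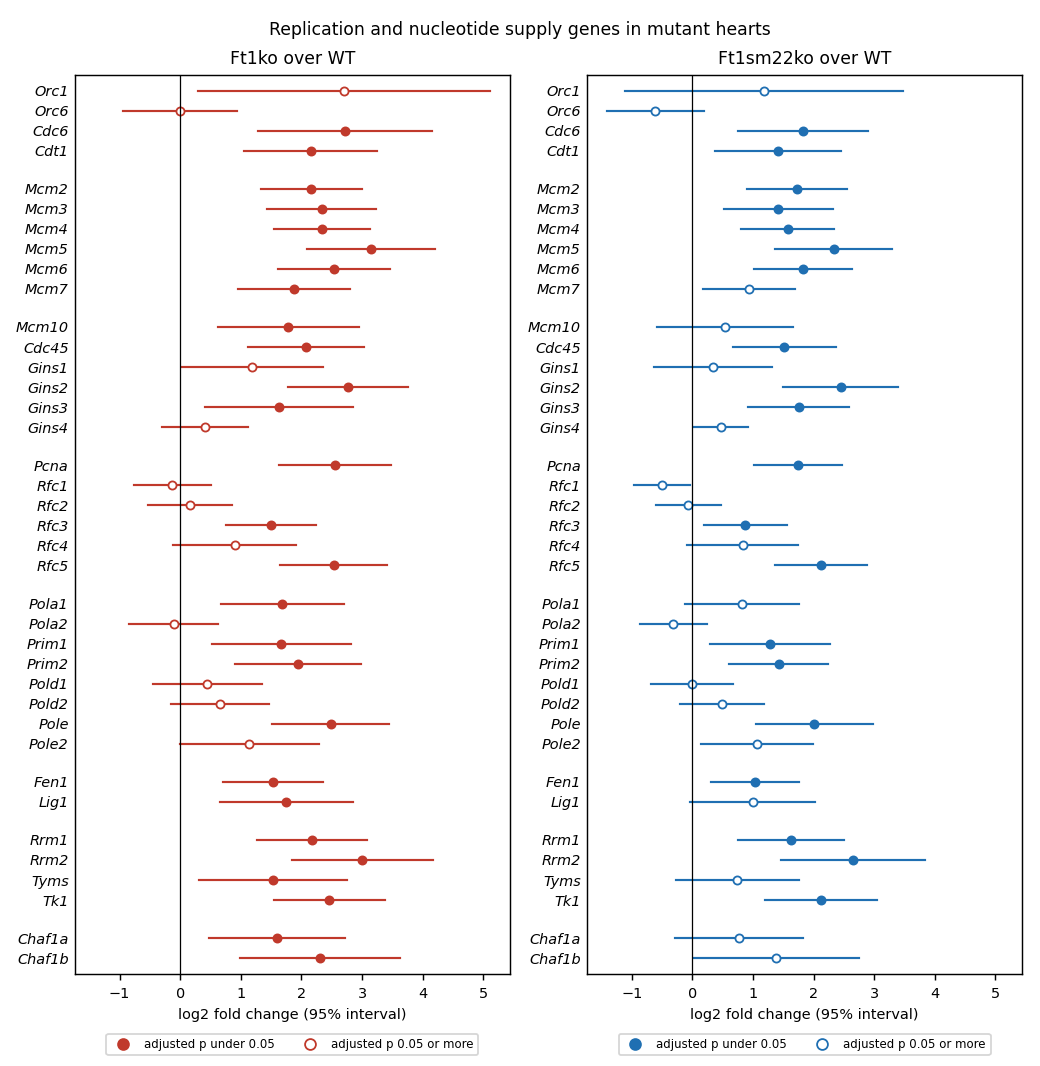
Log2 fold change of each of the 38 genes over WT in Ft1ko hearts (left) and in Ft1sm22ko hearts (right), grouped by role from origin loading at the top to histone deposition at the bottom. Points are the deposited fold changes, lines their 95% intervals, filled points have an adjusted p under 0.05. In Ft1ko 27 points are filled and in Ft1sm22ko 20, all of them right of 0.

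Promoter sequences are shown for genes of several roles because members that move together are often read through shared promoter elements. RefSeq windows on GRCm38.p6, from 250 bases before to 50 bases after the annotated start, were found for 31 of the 38 genes. They were searched on both strands for the E2F 8-mers TTTGGCGC, TTTCCCGC, TTTCGCGC and TTTGCCGC, which can overlap one another, for the CCAAT box CCAAT and for the CHR element TTTGAA. An E2F 8-mer stood in 13 of the 31 genes (41.9%), against 4.16% of the 12455 genes tested in Ft1ko that have a window. A CCAAT box stood in 19 genes (61.3% against 41.9%), a CHR element in 5 (16.1% against 14.7%), and an E2F 8-mer together with a CCAAT box in 8 (25.8% against 1.77%). Among the 23 of these genes called higher in Ft1ko the E2F share was 43.5%, and among the 8 not called it was 37.5%, shares that lie close to each other. A match describes the letters only. The stretches below are the 160 bases before the start, each 5′ to 3′ on the strand of the gene, with every match in capitals and its first base counted back from the start. Mcm5, with the highest fold change of the Mcm genes, lies on the plus strand (chr8:75109349-75109508) and holds overlapping E2F matches at -153 and -149 and CCAAT boxes at -77 and -22.
Mcm5: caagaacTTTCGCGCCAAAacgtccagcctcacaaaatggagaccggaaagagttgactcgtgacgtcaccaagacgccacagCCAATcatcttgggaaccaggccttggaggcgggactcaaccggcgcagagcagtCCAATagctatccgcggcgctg
Mcm6 lies on the minus strand (chr1:128359706-128359865), with E2F matches at -110, -106 and -47 and CCAAT boxes at -57 and -14.
Mcm6: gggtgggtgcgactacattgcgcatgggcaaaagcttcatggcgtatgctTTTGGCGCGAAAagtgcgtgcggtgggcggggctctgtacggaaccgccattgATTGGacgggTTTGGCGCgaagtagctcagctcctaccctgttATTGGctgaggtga
Cdc6 lies on the plus strand (chr11:98907991-98908150), with 1 E2F match at -138.
Cdc6: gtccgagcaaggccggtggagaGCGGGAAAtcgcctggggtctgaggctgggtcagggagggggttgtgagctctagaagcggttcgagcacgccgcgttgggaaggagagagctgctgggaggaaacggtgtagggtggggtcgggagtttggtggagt
Pola1 lies on the minus strand (chrX:93632156-93632315), with an E2F match at -138 and a CCAAT box at -37.
Pola1: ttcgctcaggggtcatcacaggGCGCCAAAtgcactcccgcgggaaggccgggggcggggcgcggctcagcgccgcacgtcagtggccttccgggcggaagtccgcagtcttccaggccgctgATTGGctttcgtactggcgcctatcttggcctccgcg
Rrm1 lies on the plus strand (chr7:102441535-102441694) and holds CCAAT boxes at -91 and -45 and no E2F 8-mer in this stretch.
Rrm1: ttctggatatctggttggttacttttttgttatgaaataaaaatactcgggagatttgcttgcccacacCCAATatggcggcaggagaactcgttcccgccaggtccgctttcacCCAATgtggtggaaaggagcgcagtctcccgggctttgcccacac
A window without any match was not particular to uncalled genes. Chaf1b, Rfc5, Tk1 and Tyms had none and were called higher in Ft1ko, while Rfc4 and Pola2 had none and were not called. Pola2, the partner of Pola1, was called in neither mutant, and its stretch on the minus strand (chr19:5964207-5964366) holds no match.
Pola2: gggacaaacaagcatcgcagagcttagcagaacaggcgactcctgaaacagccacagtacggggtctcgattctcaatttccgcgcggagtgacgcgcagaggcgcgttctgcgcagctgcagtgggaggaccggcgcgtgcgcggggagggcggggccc

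**Figure D2:**
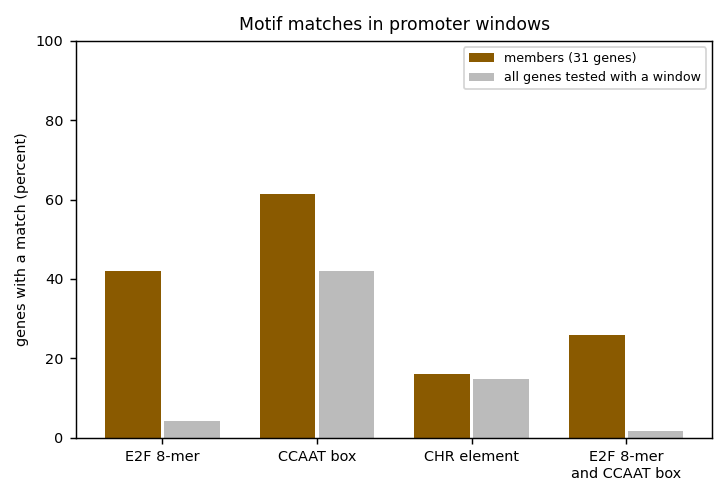
Percent of genes whose promoter window holds an E2F 8-mer, a CCAAT box, a CHR element, or both of the first kinds, for the 31 genes with a window (brown) and for all 12455 genes tested in Ft1ko with a window (grey). The E2F 8-mer stood in 41.9% against 4.16%, while the CHR element stood in 16.1% against 14.7%.

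At the loading step, Cdc6 and Cdt1 rose in both mutants and the subunits of the origin recognition complex were not called. Cdc6, the ATPase that brings the helicase ring to origins, averaged 120.5 normalized counts in Ft1ko against 18.4 in WT, a log2 fold change of 2.71 (SE 0.73, adjusted p = 0.00131). In Ft1sm22ko it averaged 87.1 against 24.6 in WT, a log2 fold change of 1.82 (SE 0.55, adjusted p = 0.00483). Cdt1, its partner in loading, averaged 291.3 in Ft1ko against 65.4 in WT (log2 2.16, SE 0.56, adjusted p = 7.98e-04) and 235.5 in Ft1sm22ko against 88.6 in WT (log2 1.41, SE 0.53, adjusted p = 0.0285). Orc1, the ATPase subunit that Cdc6 resembles, had a large and imprecise value. Its mean was 46.3 in Ft1ko against 7.1 in WT, with a log2 fold change of 2.70, but its SE of 1.23 was the highest of the 38 genes (adjusted p = 0.0717). Orc6, the smallest subunit, stood at 256.3 in Ft1ko against 257.8 in WT (log2 -0.01, SE 0.48, adjusted p = 0.992). In Ft1sm22ko its mean was 229.0 against 349.8 in WT, the lowest fold change of the 38 genes at -0.61 (SE 0.41, adjusted p = 0.255).

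The genes of the helicase ring, Mcm2, Mcm3, Mcm4, Mcm5, Mcm6 and Mcm7, were all called higher in Ft1ko, beside 19.7% of all genes. Their log2 fold changes were 1.88 to 3.15, with a median of 2.34. Mcm5, the subunit at the gate through which DNA enters the ring, averaged 782.5 in Ft1ko against 88.2 in WT, the largest log2 fold change of all 38 genes at 3.15 (SE 0.54, adjusted p = 1.39e-07). Mcm4 averaged 659.9 in Ft1ko against 130.2 in WT (log2 2.34, SE 0.40, adjusted p = 1.4e-07), and Mcm6, its neighbour in the ring, averaged 1073 against 184.5 (log2 2.54, SE 0.47, adjusted p = 1.2e-06). Mcm2 averaged 693.3 in Ft1ko against 154.9 in WT and Mcm3 averaged 768.6 against 152.5, with log2 fold changes of 2.16 and 2.33. Mcm7 had the smallest change of the ring, at 990.3 in Ft1ko against 269.1 in WT (log2 1.88, SE 0.47, adjusted p = 5.05e-04). Of the 6 genes, 5 also passed the Bonferroni adjustment in Ft1ko, and Mcm7 did not.

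In Ft1sm22ko the genes of the same ring had a median log2 fold change of 1.65. Of the 6 genes 5 were called higher, beside 16.2% of all genes. Mcm5 averaged 598.7 in Ft1sm22ko against 119.1 in WT, a log2 fold change of 2.33 (SE 0.49, adjusted p = 3e-05). Mcm6 averaged 881.8 against 249.1 (log2 1.82, SE 0.41, adjusted p = 1.12e-04) and Mcm2 averaged 691.6 against 209.2 (log2 1.72, SE 0.42, adjusted p = 4.15e-04). Mcm2 forms the other side of the gate that Mcm5 closes. Mcm4 averaged 520.9 in Ft1sm22ko against 175.5 in WT and Mcm3 averaged 550.7 against 206.3, with log2 fold changes of 1.57 and 1.42. Mcm7 was just short of the threshold, at 691.5 in Ft1sm22ko against 363.4 in WT (log2 0.93, SE 0.39, adjusted p = 0.0512), and it passed with the deposited adjusted p and when genes with low means were left out before the adjustment.

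Of the factors that activate the helicase, 4 of 6 rose in Ft1ko and 3 of 6 in Ft1sm22ko, beside 19.7% and 16.2% of all genes. GINS is a complex of 4 subunits in equal number, and of its genes Gins2 and Gins3 were called higher in both mutants. Gins2 averaged 131.2 in Ft1ko against 19.3 in WT (log2 2.77, SE 0.51, adjusted p = 8.88e-07) and 140.9 in Ft1sm22ko against 25.9 in WT (log2 2.44, SE 0.49, adjusted p = 8.68e-06). Gins3 averaged 50.5 in Ft1ko against 16.4 in WT (log2 1.62, SE 0.62, adjusted p = 0.0289) and 73.7 in Ft1sm22ko against 21.9 in WT (log2 1.75, SE 0.42, adjusted p = 3.14e-04). Gins1 and Gins4 encode the other subunits and were called in neither mutant. Gins1 had log2 fold changes of 1.19 in Ft1ko (SE 0.59, adjusted p = 0.106) and 0.34 in Ft1sm22ko (SE 0.49, adjusted p = 0.641). Gins4 had log2 fold changes of 0.41 (SE 0.36) and 0.47 (SE 0.23), with adjusted p of 0.4 in Ft1ko and 0.101 in Ft1sm22ko. The difference between subunits was not tested. Cdc45, which clamps onto the ring beside GINS, averaged 188.5 in Ft1ko against 44.7 in WT (log2 2.08, adjusted p = 1.81e-04) and 172.0 in Ft1sm22ko against 60.2 in WT (log2 1.52, adjusted p = 0.00292). Mcm10, which starts the movement of the helicase, averaged 136.3 in Ft1ko against 39.7 in WT (log2 1.78, SE 0.59, adjusted p = 0.0107), and 78.4 in Ft1sm22ko against 54.0 in WT, where its log2 fold change of 0.54 (SE 0.57) was not called (adjusted p = 0.506).

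The clamp and 2 subunits of its loader rose in both mutants, while the other 3 subunits were called in neither. Pcna, the ring that tethers polymerases to DNA, averaged 1508 in Ft1ko against 257.3 in WT (log2 2.55, SE 0.47, adjusted p = 1.27e-06). In Ft1sm22ko it averaged 1154 against 345.5 in WT (log2 1.74, SE 0.37, adjusted p = 4.1e-05). Mouse annotations list processed copies of Pcna, and of Tyms below, that could take up some of their reads. Rfc5, a small subunit of the loader, averaged 249.9 in Ft1ko against 43.2 in WT (log2 2.53, SE 0.45, adjusted p = 3.85e-07). It had the smallest adjusted p of the 38 genes in Ft1sm22ko, at 252.3 against 58.0 in WT (log2 2.12, SE 0.38, adjusted p = 8.17e-07). Rfc3 rose less, with log2 fold changes of 1.50 in Ft1ko (SE 0.38, adjusted p = 5.44e-04) and 0.87 in Ft1sm22ko (SE 0.35, adjusted p = 0.0421). Rfc1, the large subunit, Rfc2 and Rfc4 complete the loader. Rfc1 averaged 668.0 in Ft1ko against 731.4 in WT (log2 -0.13, SE 0.32) and 699.4 in Ft1sm22ko against 988.4 in WT (log2 -0.50, SE 0.24, adjusted p = 0.0931). Rfc2 had log2 fold changes of 0.16 and -0.07 in Ft1ko and in Ft1sm22ko, and Rfc4 of 0.90 and 0.83, all short of the threshold.

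**Figure D3:**
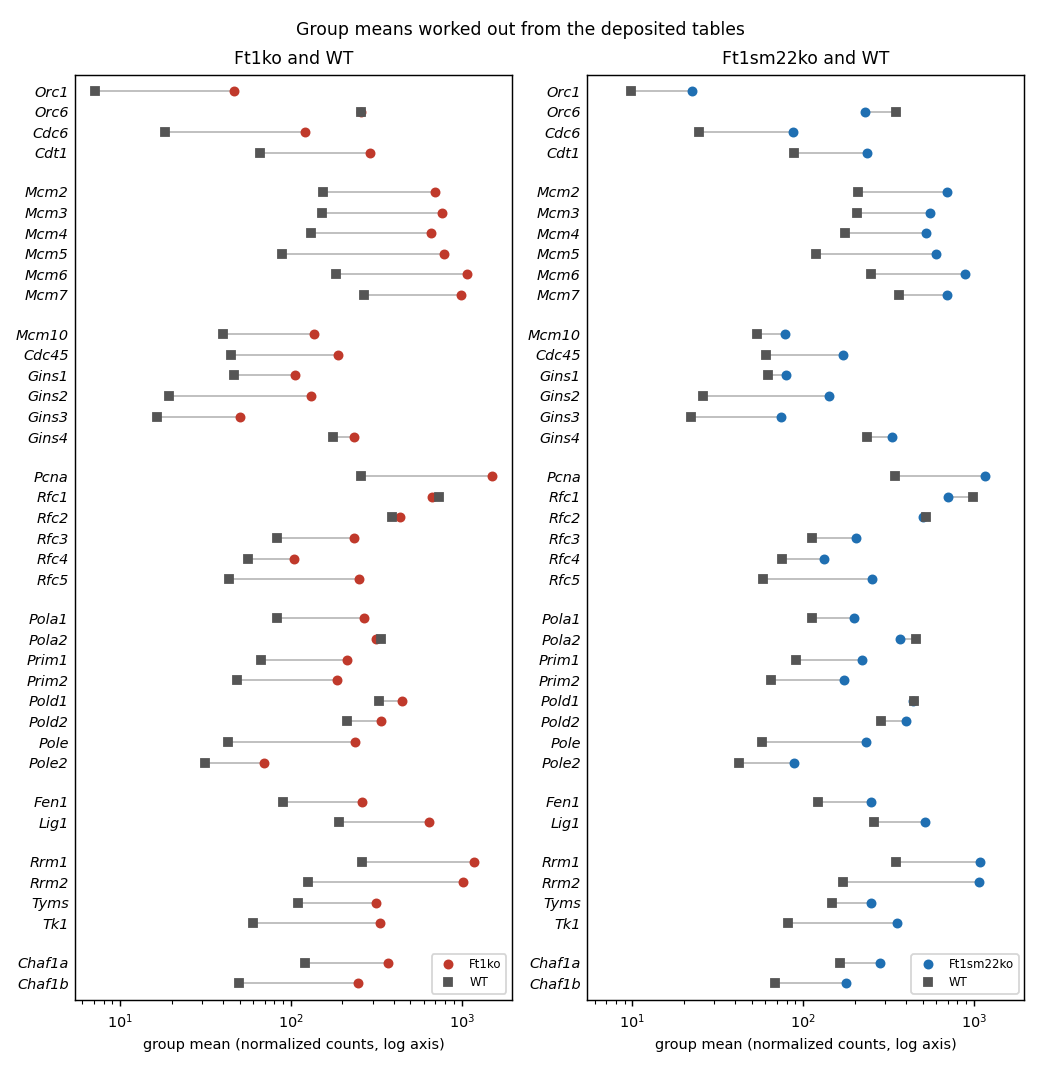
Group means of the 38 genes in normalized counts on a log axis, with Ft1ko beside WT (left) and Ft1sm22ko beside WT (right), worked out from the deposited means and fold changes and without error bars. Mcm5 shows the widest gap in Ft1ko, at 782.5 against 88.2, while the points of Orc6, Rfc1, Rfc2 and Pola2 lie nearly on each other in Ft1ko.

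Among polymerase and primase genes 4 of 8 rose in Ft1ko and 3 of 8 in Ft1sm22ko, beside 19.7% and 16.2% of all genes. Pole, the catalytic subunit of the leading strand polymerase, averaged 237.2 in Ft1ko against 42.5 in WT (log2 2.48, SE 0.49, adjusted p = 6.83e-06). In Ft1sm22ko it averaged 231.7 against 57.5 in WT (log2 2.01, SE 0.49, adjusted p = 3.76e-04). Pole2, its second subunit, had log2 fold changes of 1.14 (SE 0.59) and 1.07 (SE 0.47) in Ft1ko and in Ft1sm22ko and was not called (adjusted p = 0.117 and 0.0692). The primase subunits both rose in both mutants. Prim2, the large subunit, averaged 184.9 in Ft1ko against 48.1 in WT (log2 1.94, SE 0.53, adjusted p = 0.00152) and 173.4 in Ft1sm22ko against 64.7 in WT (log2 1.42, SE 0.41, adjusted p = 0.00344). Prim1, which makes the RNA primer, had log2 fold changes of 1.67 in Ft1ko (SE 0.58, adjusted p = 0.0157) and 1.28 in Ft1sm22ko (SE 0.51, adjusted p = 0.039).

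Pola1, the catalytic subunit of the polymerase that this primase belongs to, averaged 267.1 in Ft1ko against 83.1 in WT (log2 1.68, SE 0.52, adjusted p = 0.00505). In Ft1sm22ko its mean of 198.9 against 112.8 in WT was not called (log2 0.82, SE 0.48, adjusted p = 0.187). Pola2, the regulatory subunit, stood at 314.2 in Ft1ko against 338.1 in WT (log2 -0.11, SE 0.38, adjusted p = 0.853) and at 367.6 in Ft1sm22ko against 456.7 in WT (log2 -0.31, SE 0.28, adjusted p = 0.416). Neither gene of polymerase delta, the lagging strand enzyme, was called. Pold1, its catalytic subunit, averaged 445.4 in Ft1ko against 327.5 in WT (log2 0.44, SE 0.46) and 439.1 in Ft1sm22ko against 442.5 in WT (log2 -0.01, SE 0.35). Pold2 had log2 fold changes of 0.66 (SE 0.41) and 0.48 (SE 0.35) in Ft1ko and in Ft1sm22ko. The 95% interval of Pold1 ran from -0.46 to 1.34 in Ft1ko and from -0.69 to 0.67 in Ft1sm22ko.

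The genes that finish the lagging strand were both called in Ft1ko. Fen1, the flap endonuclease, averaged 261.0 in Ft1ko against 90.1 in WT (log2 1.53, SE 0.42, adjusted p = 0.00153) and 249.1 in Ft1sm22ko against 121.3 in WT (log2 1.04, SE 0.37, adjusted p = 0.0198). Lig1, the ligase that seals the nick, averaged 643.2 in Ft1ko against 190.8 in WT (log2 1.75, SE 0.56, adjusted p = 0.00741). In Ft1sm22ko Lig1 averaged 516.8 against 259.4 in WT, a log2 fold change of 0.99 that was not called (SE 0.53, adjusted p = 0.137).

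All 4 nucleotide supply enzymes rose in Ft1ko and 3 of 4 in Ft1sm22ko, beside 19.7% and 16.2% of all genes. Rrm2, the subunit of ribonucleotide reductase that limits its activity in S phase, averaged 1011 in Ft1ko against 126.0 in WT (log2 3.0, SE 0.59, adjusted p = 5.77e-06). It had the largest fold change of the 38 genes in Ft1sm22ko, at 1073 against 171.5 in WT (log2 2.64, SE 0.61, adjusted p = 1.4e-04). Its partner Rrm1, which carries the catalytic site, averaged 1177 in Ft1ko against 259.8 in WT (log2 2.18, SE 0.46, adjusted p = 3.05e-05) and 1083 in Ft1sm22ko against 351.6 in WT (log2 1.62, SE 0.45, adjusted p = 0.00187). Tk1, the thymidine kinase of the salvage route, averaged 330.7 in Ft1ko against 60.0 in WT (log2 2.46, SE 0.47, adjusted p = 2.32e-06) and 353.7 in Ft1sm22ko against 81.3 in WT (log2 2.12, SE 0.47, adjusted p = 8.43e-05). Tyms, the thymidylate synthase of the other route, was nearer the threshold. It averaged 314.1 in Ft1ko against 109.2 in WT (log2 1.52, SE 0.62, adjusted p = 0.0419) and 247.7 in Ft1sm22ko against 148.1 in WT (log2 0.74, SE 0.52, adjusted p = 0.278).

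The histone chaperone genes rose in Ft1ko. Chaf1b averaged 245.2 in Ft1ko against 49.8 in WT (log2 2.30, SE 0.67, adjusted p = 0.0032), and Chaf1a, the subunit that binds Pcna, averaged 368.6 against 121.5 (log2 1.60, SE 0.57, adjusted p = 0.0183). In Ft1sm22ko neither was called. Chaf1b averaged 178.2 in Ft1sm22ko against 68.2 in WT (log2 1.39, SE 0.70, adjusted p = 0.114) and Chaf1a averaged 281.6 against 165.2 (log2 0.77, SE 0.54, adjusted p = 0.287).

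The mutants were compared directly in the third table, which bears on Mcm7, Mcm10, Pola1, Lig1, Tyms, Chaf1a and Chaf1b, the 7 genes called in Ft1ko and not in Ft1sm22ko. None of the 38 genes was called in Ft1sm22ko over Ft1ko in the Wald test of DESeq2, against 10.8% of all genes called higher, 9% called lower and 1.53% higher after Bonferroni. At an unadjusted p under 0.05 there were 8, namely Orc6, Mcm3, Mcm4, Mcm7, Mcm10, Pcna, Rfc3 and Chaf1a, all lower in Ft1sm22ko, and the smallest adjusted p was 0.0916. The share of all genes lower under that unadjusted p was not counted, though it holds at least the 9% called lower. None of the 8 passed the adjusted threshold, so they are not read as a difference between the mutants. The median log2 fold change of the 38 genes was -0.55, with 36 of 38 values below 0 and a range of -1.50 to 0.11, beside -0.05 for all genes. Mcm10 averaged 124.3 in Ft1sm22ko against 291.4 in Ft1ko, a log2 fold change of -1.23 (95% interval -2.31 to -0.15, adjusted p = 0.0962). Mcm7 averaged 1106 against 2130 in Ft1ko (log2 -0.95, -1.81 to -0.08, adjusted p = 0.114), and Chaf1a averaged 449.0 against 790.7 in Ft1ko (log2 -0.82, -1.57 to -0.07, adjusted p = 0.116). The other 4 of these 7 genes had log2 fold changes of -0.74 for Lig1, -0.77 for Tyms, -0.86 for Pola1 and -0.89 for Chaf1b, with intervals that cover 0. So the calls of these 7 genes differ between the mutants, while the difference itself passed the adjusted threshold for none of them.

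The intervals of the difference between the mutants were mostly too wide to show likeness either. Of the 38 intervals 30 covered 0, and 7 lay within 1 log2 unit on both sides of 0. Rrm2 averaged 1711 in Ft1sm22ko against 2172 in Ft1ko, a log2 fold change of -0.34 with an interval of -1.44 to 0.75. Gins4 had the narrowest, at 531.4 in Ft1sm22ko against 503.9 in Ft1ko (log2 0.08, -0.32 to 0.48). Gins3, the other gene with a value above 0, averaged 117.4 against 108.4 in Ft1ko (log2 0.11, -0.69 to 0.92). In this table the thymocyte markers summed to 226.0 in Ft1sm22ko against 10327 in Ft1ko, with a p for 1 of 10 genes, the lung markers to 6086 against 105673, and the cardiomyocyte markers to 1145459 against 557227, of which 6 of 8 were called higher. The 6 fibroblast markers had a median log2 fold change of 0.26 here, and 2 of them were called higher, beside 10.8% of all genes. The part of these cell types in the lower values of the replication genes was not tested.

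**Figure D4:**
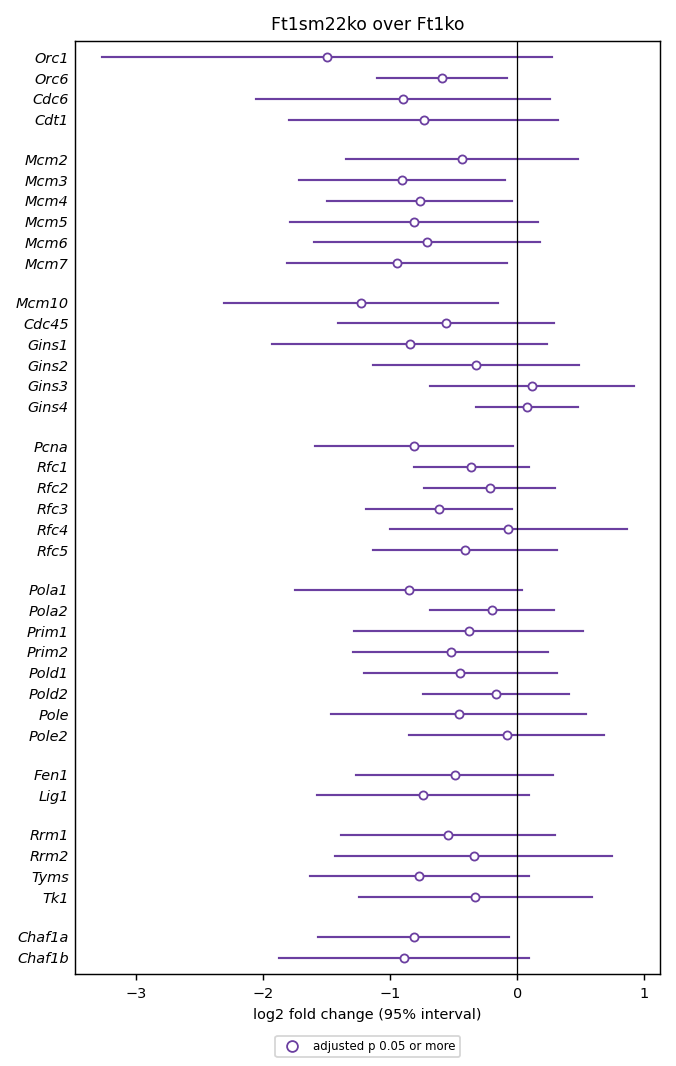
Log2 fold change of each of the 38 genes in Ft1sm22ko over Ft1ko, with 95% intervals, grouped by role from origin loading at the top. All points are open, since no adjusted p was under 0.05, and 36 of 38 lie left of 0, from -1.50 for Orc1 to 0.11 for Gins3.

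Of 112 further genes on 7 lists of replication, nucleotide and cell cycle genes, 46 were called higher in Ft1ko and 0 lower, and of the 111 with a p in Ft1sm22ko 41 were called higher and 3 lower. The share of all genes called higher was 19.7% in Ft1ko and 16.2% in Ft1sm22ko, and several of the lists lay near it. Of 18 licensing and firing genes 6 were called higher in Ft1ko and 4 in Ft1sm22ko, and 0 lower in each. Kat7, a histone acetyltransferase that acts at origins, averaged 562.4 in Ft1ko against 247.7 in WT (log2 1.18, adjusted p = 1.75e-05) and 646.5 in Ft1sm22ko against 333.9 in WT (log2 0.95, adjusted p = 9.27e-05). Dbf4 and Cdc7 form the kinase that fires origins. Dbf4 averaged 284.0 in Ft1ko against 64.4 in WT (log2 2.14, adjusted p = 2.57e-04), and Cdc7 averaged 157.1 against 40.9 (log2 1.94, adjusted p = 0.00116). In Ft1sm22ko their log2 fold changes were 1.51 for Dbf4 (adjusted p = 0.0288) and 1.22 for Cdc7 (adjusted p = 0.00593). Of 19 fork genes 6 were higher in each mutant, and 2 were lower in Ft1sm22ko, where 16% of all genes were lower. Clspn, a fork checkpoint mediator, had log2 fold changes of 3.13 in Ft1ko (adjusted p = 3.36e-05) and 2.07 in Ft1sm22ko (adjusted p = 0.00688), and Pole3, an accessory subunit of polymerase epsilon, of 1.08 in Ft1ko (adjusted p = 0.00192). The genes that fell in Ft1sm22ko were Top1, which relieves twist ahead of the fork, at -0.77 and Rnaseh2a at -0.57.

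The wider nucleotide supply was covered by lists of salvage and of new synthesis. Of 16 further genes of the deoxynucleotide pool 3 were called higher in Ft1ko, a share no larger than the 19.7% of all genes, and of the 15 with a p 4 were called higher in Ft1sm22ko, beside 16.2% of all genes. Their median log2 fold changes were 0.23 and 0.25, beside 0.13 and 0.06 for all genes. Dck, the salvage kinase for deoxycytidine, averaged 371.1 in Ft1ko against 37.0 in WT (log2 3.33, adjusted p = 1.42e-05) and 194.2 in Ft1sm22ko against 49.9 in WT (log2 1.96, adjusted p = 1.84e-05). Dctd, the deaminase that turns dCMP into dUMP for thymidylate synthase, had log2 fold changes of 2.08 in Ft1ko (adjusted p = 0.00138) and 2.13 in Ft1sm22ko (adjusted p = 0.00355). Tymp, a phosphorylase that breaks down thymidine, had one of 2.56 in Ft1ko (adjusted p = 7.15e-05). Of 19 genes of purine and pyrimidine synthesis 5 were higher in Ft1ko and 7 in Ft1sm22ko, to be read beside the same shares of 19.7% and 16.2%. Atic, which closes the purine ring, had log2 fold changes of 1.56 in Ft1ko (adjusted p = 1.75e-04) and 1.07 in Ft1sm22ko (adjusted p = 0.00179), and Cad, which starts pyrimidine synthesis, one of 1.21 in Ft1ko (adjusted p = 0.0056). Prps2, which makes the ribose donor, had one of 1.15 in Ft1sm22ko (adjusted p = 0.00155), while Pfas, an enzyme of purine synthesis, fell there with -0.89 (adjusted p = 3.85e-04).

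Larger shares were called on the lists of replicative chromatin and of proliferation. Of 12 further genes of replicative chromatin 8 rose in Ft1ko and 6 in Ft1sm22ko, with median log2 fold changes of 1.32 and 0.86. Asf1b, which hands histones to the chaperone of Chaf1a and Chaf1b, averaged 189.1 in Ft1ko against 24.4 in WT (log2 2.95, adjusted p = 5.26e-06) and 177.9 in Ft1sm22ko against 32.9 in WT (log2 2.43, adjusted p = 1.77e-04). Uhrf1, which brings the DNA methyltransferase to new strands, averaged 987.9 in Ft1ko against 122.9 in WT (log2 3.01, adjusted p = 5.02e-05). Rbbp4, the small subunit of the same chaperone, averaged 2038 in Ft1sm22ko against 1026 in WT (log2 0.99, adjusted p = 3.49e-05). Of 18 proliferation genes outside replication 17 rose in Ft1ko and 13 in Ft1sm22ko, with medians of 2.47 and 1.94. Ccnb2, a mitotic cyclin, averaged 463.7 in Ft1ko against 67.8 in WT (log2 2.77, adjusted p = 4.63e-07), and Foxm1, a transcription factor of mitotic genes, averaged 464.0 against 78.6 (log2 2.56, adjusted p = 9.76e-07). Ccne2, a cyclin of S phase entry, averaged 126.5 in Ft1sm22ko against 17.4 in WT (log2 2.86, adjusted p = 8.24e-06), and Ccnb1, a mitotic cyclin, averaged 375.1 against 43.5 (log2 3.11, adjusted p = 4.81e-05). The replication checkpoint list stood at 1 of 10 genes higher in each mutant, under the 19.7% and 16.2% of all genes. That gene was Cdc25b, a phosphatase that activates cyclin kinases, with log2 fold changes of 1.81 in Ft1ko (adjusted p = 2.88e-05) and 1.12 in Ft1sm22ko (adjusted p = 0.0165). Next by p were the kinase gene Chek1 in Ft1ko (log2 1.60, adjusted p = 0.0708) and the kinase gene Wee1 in Ft1sm22ko (log2 0.82, adjusted p = 0.053). No set test was run on these lists, which were chosen with earlier results of these data known.

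**Figure D5:**
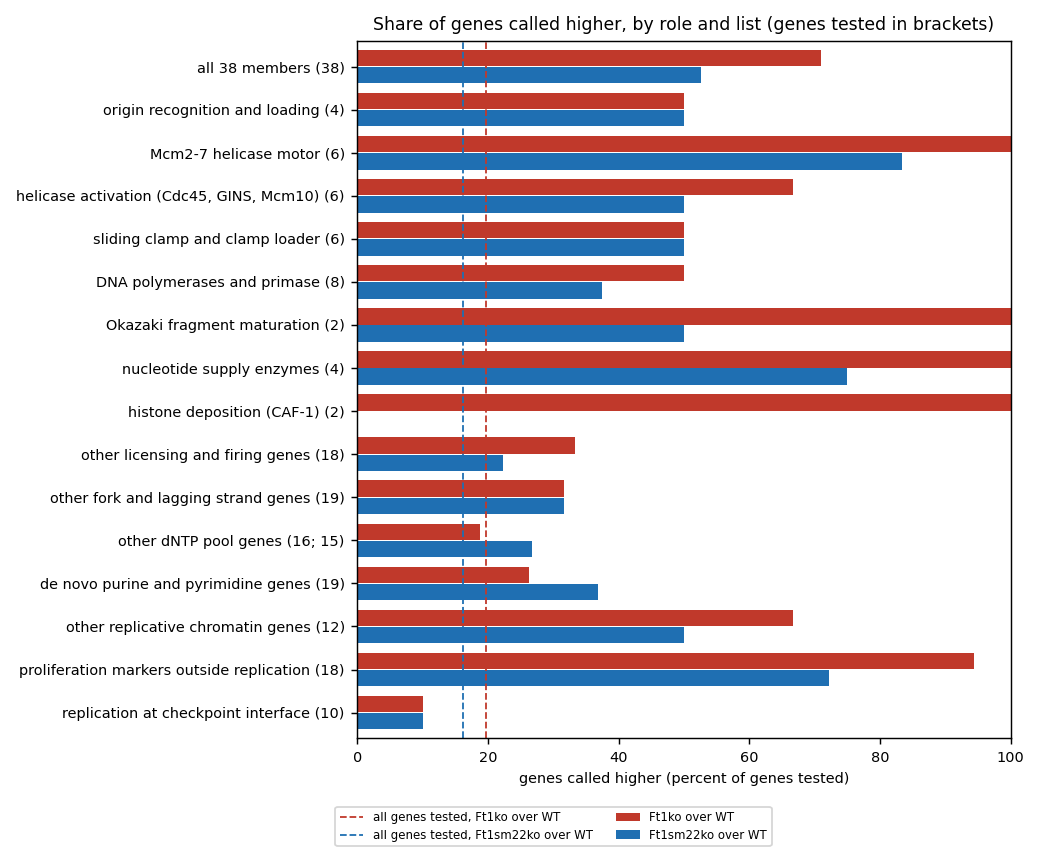
Percent of tested genes called higher than in WT for the 38 genes, for each role and for 7 further lists, in Ft1ko (red) and Ft1sm22ko (blue). Dashed lines mark the share of all genes tested, 19.7% in Ft1ko and 16.2% in Ft1sm22ko, and brackets give the genes tested, with both numbers where they differ.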

How the data were processed

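RNA of 10 hearts was sequenced by the authors, who made libraries with the Universal Plus mRNA-Seq kit, aligned reads with STAR to a reference named hg38 in the sources although the gene symbols are those of mouse, counted them with htseq-count and fitted DESeq2 to each pair of groups. StringTie is also named, and versions are not given in the sources used here. Each of the 3 deposited tables gives the mean signal of a gene (counts divided by size factors, over both groups), the log2 fold change and its standard error, the Wald score, and the p-value with the authors' own adjusted p-value. No per-heart values were analysed here, so that the depth is unknown and no model across hearts could be fitted. These are columns of the authors' comparisons, and all results rest on them. The mean signals sum to 12855842, 17494318 and 19300052, and 128, 277 and 318 genes have no p.

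Fold changes were turned to read mutant over WT or Ft1sm22ko over Ft1ko, with the direction checked on Aktip. Each p was adjusted again by Benjamini-Hochberg over the 16748, 16661 and 17169 genes with a p and called under 0.05, with no limit on fold or mean. Group means follow from mean, fold and number of hearts. Named genes are all 38 members, Aktip and, of each pathway list, the genes with the smallest p in a comparison against WT (at least 2 where as many were called) and those called between the mutants, while marker lists are given by sums and counts. This is a part of the rule as first written, which asked for 2 to 4 genes of every list. Rnaseh2a and Samhd1 were named after their values were seen. The members and lists were chosen with earlier results of these data known. Nothing in the labels says that the hearts came from separate litters, so that the p-values measure the spread between these samples. Alternatives were Bonferroni, the deposited adjusted p, mean minimums of 10 and 100, centred folds, a fold limit of 0.5 and a t distribution. The adjustment and calls were run on simulated folds drawn with the deposited standard errors. This checks the computation only and cannot show whether those errors are right. Figures were drawn with matplotlib 3.10.9, and values computed with pandas 2.3.3, scipy 1.17.1 and numpy 2.4.6 under python 3.11.15. Promoter windows are from RefSeq, and exons left out of the printed stretches are from GENCODE.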

Additional observations from a re-analysis of the deposited data

Results flagged for a closer look

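None of the 38 replication genes differed between the mutants by its own test, and the genes that did are from the wider lists, given here as values of Ft1sm22ko over Ft1ko in the DESeq2 Wald test with adjusted p. Of 18 licensing genes 1 was called lower in Ft1sm22ko and of 19 fork genes 3, with 0 higher, beside 9% of all genes called lower. These had log2 fold changes of -1.51 for Recql4 (adjusted p = 0.0397), -1.42 for Atad5, which unloads Pcna (adjusted p = 0.0411), -0.80 for Tipin (adjusted p = 0.0349) and -0.57 for Pole3, an accessory subunit of polymerase epsilon (adjusted p = 0.00911). On the chromatin list 1 of 12 genes was called lower, the histone chaperone gene Supt16 at -0.75 (adjusted p = 0.0094). Of 16 genes of the deoxynucleotide pool 4 were called higher and 1 lower, and of 19 genes of purine and pyrimidine synthesis 1 higher and 1 lower, beside 10.8% of all genes higher. Rrm2b, the p53-dependent counterpart of Rrm2, was higher by 0.79 (adjusted p = 6.21e-04), Nme2 by 1.23 (adjusted p = 0.00148), Dctpp1 by 0.84 (adjusted p = 0.0253), Dguok by 0.78 (adjusted p = 0.0288) and Dhodh by 0.80 (adjusted p = 0.0124). Samhd1, which breaks down deoxynucleotides, had a value of -0.69 (adjusted p = 0.0317) and Impdh1 of -0.74 (adjusted p = 0.0271). Aktip was higher in Ft1sm22ko by 0.72 (adjusted p = 0.0466). The sums of thymocyte, lung and cardiomyocyte markers differ between the same hearts, and their part in these values was not tested.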

How the results depend on the processing

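The number of replication genes called higher was 27 in Ft1ko and 20 in Ft1sm22ko against WT. Bonferroni adjustment gave 12 and 3, and comparing the Wald statistic with a t distribution on 4 and 5 degrees of freedom gave 0 and 0, as it did for all genes of each table, Aktip included. This distribution has few degrees of freedom and leaves aside the spread that DESeq2 shares across genes. With the other alternatives the number stayed between 23 and 27 in Ft1ko and between 18 and 21 in Ft1sm22ko, and the 0 calls between the mutants stayed 0 under each. The minimum mean of 100 left fewer than 38 genes to count. It took out Cdc6, Gins2 and Gins3 against WT in both mutants, which are called without it. Mcm10, called in Ft1ko without this minimum, was taken out there as well, with a mean of 88.0. Mcm7 in Ft1sm22ko passed with the deposited adjusted p, with either minimum mean and with centring on genes with a mean of at least 100. Centring on these genes turned 3 uncalled values, Orc6 to 0.10 and Pola2 to 0.0056 in Ft1ko and Pold1 to 0.040 in Ft1sm22ko. The median log2 fold changes of the 38 genes were 1.94 and 1.28 when centred this way and 1.52 and 0.88 as means weighted by precision. No paired analysis was possible because no values per heart were analysed, and leaving out each heart could not be run for the same reason. A result that rests on a single heart would therefore be seen here only where DESeq2 left the p blank. All 38 genes had a p in each comparison, which does not show that no single heart weighs on them.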

Other observations

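The replication genes had larger standard errors than other genes of like abundance. In Ft1ko against WT the median SE of the log2 fold change was 0.49 over the 38 genes and 0.376 over the 10508 genes whose means lie within their range, and 20 of the 38 lay above the 75th percentile of those genes (0.481). In Ft1sm22ko against WT the medians were 0.453 and 0.303, with 21 of 38 above that percentile. Between the mutants they were 0.427 and 0.246, with 31 of 38 above it. Which hearts differed cannot be read from the tables.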
